A study of Mus musculus with 4 samples.

Results

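The 30 genes described here encode the folding, quality-control and stress-sensing machinery of the endoplasmic reticulum (ER), the compartment in which secreted and membrane proteins are folded. They were chosen by symbol and looked up in a table of 22013 mouse genes, where each symbol matched 1 row. The table came from RNA-seq of poly(A) RNA from C57BL/6 mouse blastocysts, embryos cultured to the stage that precedes implantation. The knockout group held 2 libraries from embryos that received CRISPR-Cas9 against Ywhaz, the gene of the adaptor protein 14-3-3 zeta, as zygotes. The control group held 2 libraries, for which the labels give Cas9 protein alone, a control guide RNA and no treatment in different places. Every library came from a pool of 5 blastocysts and carried the same batch label, and all embryos came from superovulated females mated to males of that strain. The embryos were edited directly, so a pool can mix cells with different edits, and the knockout libraries are named with the prefix si, although editing and not RNA interference is described.

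Proteins enter the ER through the Sec61 channel, are bound by chaperones such as BiP and GRP94, receive disulfide bonds from protein disulfide isomerases, and are sent back to the cytosol for destruction by ER-associated degradation if they stay misfolded. When unfolded proteins accumulate, 3 sensors in the ER membrane start the unfolded protein response. ATF6 is cut to release a transcription factor, IRE1 (encoded by Ern1) splices Xbp1 mRNA so that it encodes an active factor, and PERK (encoded by Eif2ak3) slows translation and raises ATF4. The blastocyst depends on secretion, since its outer epithelium moves fluid and its primitive endoderm lays down a basement membrane.

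Values are FPKM, reads scaled by transcript length and library depth, as the authors deposited them. Spacing of the lowest values gave estimated depths, in units of 1e6 fragments, of 17.1 to 18.5, so that a 2 kb transcript at 1 FPKM stands for 34.2 to 37.0 fragments and carries a counting error of 16.4% to 17.1%. Ywhaz itself measured 143 and 123 FPKM in the control libraries. It measured 32.7 FPKM in knockout library 1 but 98.2 FPKM in knockout library 2, so knockout library 2 lay much closer to the controls than knockout library 1 did. All 8 epiblast markers were tested and 7 had log2 fold changes above 0 between knockout and control, at a median of 0.26, with a summed level of 269 to 278 FPKM in control and of 372 to 422 FPKM in knockout libraries. All 8 trophectoderm markers were tested and 6 were above 0, at a median of 0.34, with a summed level of 196 to 247 FPKM in control and of 237 to 362 FPKM in knockout libraries. Of 13 primitive endoderm markers 10 were tested and 9 of those were below 0, at a median of −0.24, with a summed level of 420 to 581 FPKM in control and of 442 to 654 FPKM in knockout libraries, most of it from Dab2. None of these markers passed the adjusted threshold used below for the 30 genes. The part of these markers in the results was not tested. The 10 cumulus cell markers summed to 0.383 to 0.63 FPKM in any library, and Cyp19a1 and Has2 were at 0 in all 4. In bulk libraries, fewer cells of a type and less RNA per cell cannot be told apart.

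The blastocysts expressed all 30 genes, some abundantly and some barely. Each gene was above 0 in every library. A mean over the 4 libraries of at least 100 FPKM was reached by 3 genes, a mean of 10 to 100 FPKM by 18, a mean of 1 to 10 FPKM by 6, and 3 lay under 1 FPKM. The median of these means over the 30 genes was 27.4 FPKM. The 3 highest were Sec61b, a small subunit of the translocation channel, at 334 FPKM, Manf, a secreted ER stress protein, at 239 FPKM, and Derl2, a membrane component of degradation complexes, at 133 FPKM. The 3 lowest were the sensor gene Ern1 at 0.69 FPKM, the degradation lectin Os9 at 0.923 FPKM and the ubiquitin ligase adaptor Sel1l at 0.992 FPKM. These 3 fell below the minimum mean of 1 FPKM and were not tested, which leaves 27 of 30. Just above that minimum stood the sensor gene Atf6, at 1.21 FPKM.

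**Figure D1:**
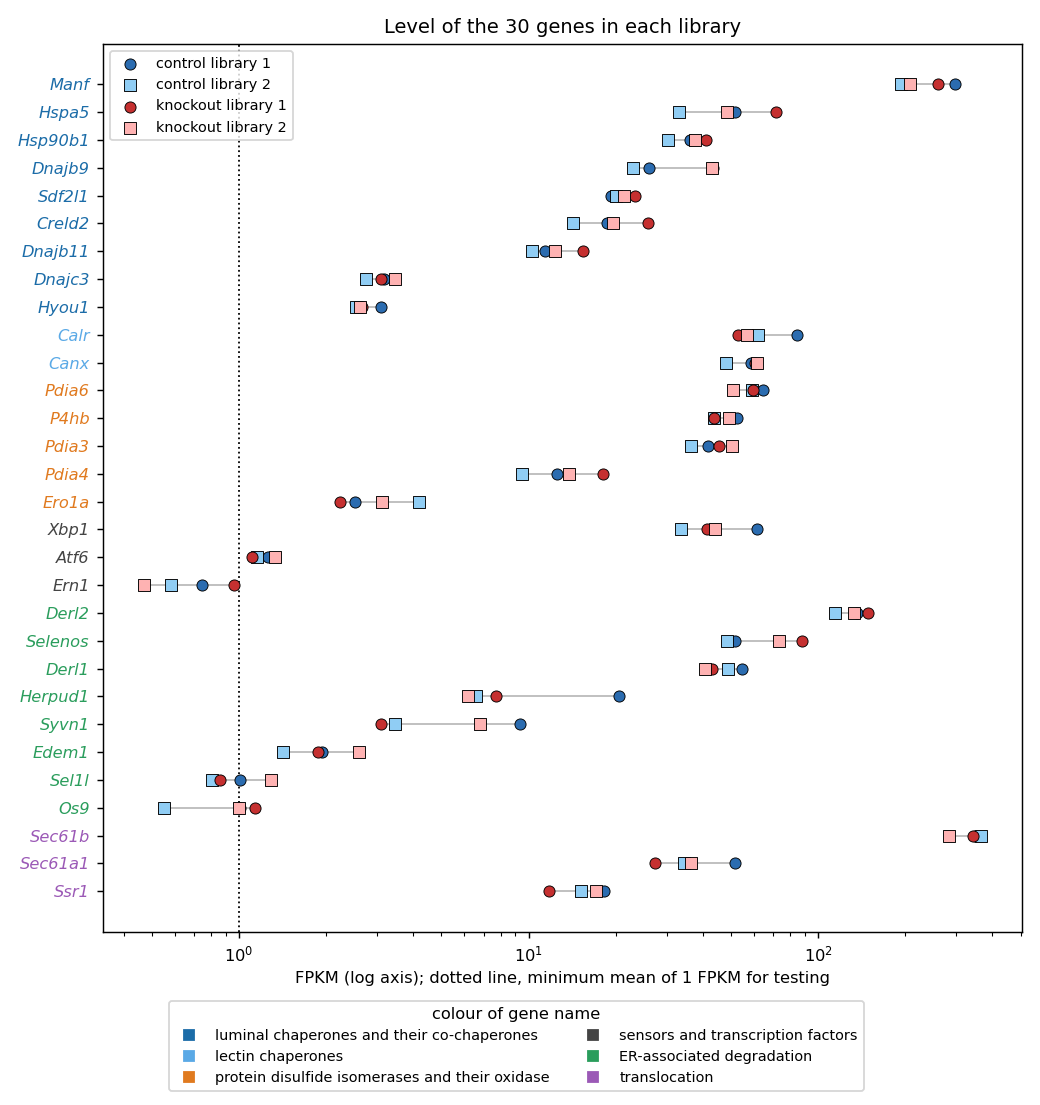
FPKM of the 30 genes in each of the 4 libraries, on a log axis, with genes grouped by role and coloured by it. Circles are library 1 and squares library 2 of each group, and the grey line joins the lowest and highest library. Sec61b, Manf and Derl2 lie highest and Ern1, Os9 and Sel1l lowest, and control library 1 lies far to the right for Herpud1. For Syvn1 control library 1 is highest at 9.33 FPKM, with knockout library 2 next at 6.79 FPKM.

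No gene of the 27 tested passed an adjusted p of 0.05 between knockout and control libraries (limma, Benjamini-Hochberg over all 9544 genes tested), where 0.0733% of all genes tested did. Adjusted p ranged from 0.228 to 0.998 over the 27. Log2 fold changes, given throughout as knockout minus control on the log2(FPKM + 1) scale, were above 0 in 14 and below 0 in 13, with a median of 0.01 against 0.05 for all genes tested. They ran from −0.69 for Herpud1 to 0.80 for Dnajb9. Ywhaz, the targeted gene, stood at −1.21 ± 0.39 (SE), with a limma adjusted p of 0.305, so the fit did not call it either. With 2 libraries per group, a difference of that size can go uncalled. In 12 of the 27 the log2 fold change was smaller than its own standard error, against 5265 of all 9544 genes tested. Knockout and control values did not overlap, with knockout higher, in 9 of 27 genes against 27.4% of all genes tested, and with knockout lower in 3 of 27 against 14.0%. An unadjusted limma p under 0.05 was reached by 2 genes with higher values, where 7.75% of all genes tested did so, and by 0 with lower values, where 3.33% did so. Each of the shares for non-overlap and for unadjusted p lies close to its background. The authors' deposited table gives none of the 30 genes an FDR under 0.05, where 0.309% of genes above 0 in it have one. Its own unadjusted p, from a test not stated, is under 0.05 for 4 of the 30, a number not counted over all genes. These are Dnajb9 and Selenos, higher in knockout, and Herpud1 and Calr, lower at log2 fold changes of −0.96 and −0.42 in that table. With 2 against 2 libraries the smallest p of an exact permutation test on any gene is 0.333. The labels do not state whether pools of a group had different parents or dates, so every p-value reflects spread among these pools, which may be technical.

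**Figure D2:**
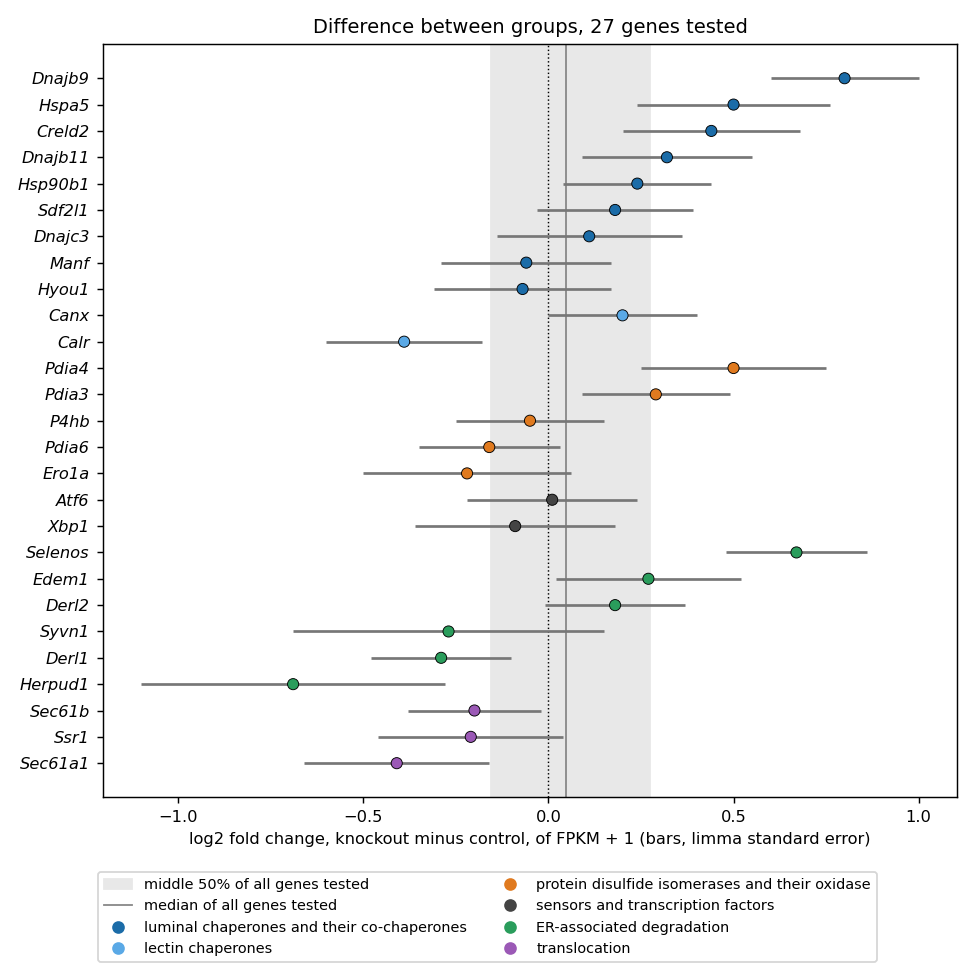
Log2 fold change of the 27 genes tested, knockout minus control, on the log2(FPKM + 1) scale with limma standard errors as bars, grouped by role. The grey band is the middle 50% of all genes tested. Dnajb9 at 0.80 and Selenos at 0.67 lie to the right of the band, the 3 translocation genes lie below 0, and Herpud1 at −0.69 has a standard error of 0.41.

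Promoter windows of several of these genes hold the ER stress response element, the sequence through which ATF6 and the factor NF-Y are known to act, and they are shown because the genes that carry it are the ones usually read as targets of the response. RefSeq windows from 250 bases before to 50 bases after the annotated start (GRCm38.p6, not the authors' build) were found for 25 of the 30 genes. The element ERSE was searched on both strands as CCAAT, any 9 bases and CCACG. An exact match was found in 8 of the 25 genes, against 0.137% of the 27025 genes with a window. A related element, ERSE-II, searched on both strands as ATTGG, any 1 base and CCACG, was found in 2 of the 25, Herpud1 and Dnajb11, against 0.0444% of genes. The site bound by XBP1, searched on both strands as TGACG followed directly by TGG, was found in 0 of the 25 and in 0.714% of genes. ERSE and ERSE-II share the letters CCACG but no position here was matched by both. The 30 genes were listed from knowledge of the response, so the number of matches is a description of the list. Each stretch is written on the strand of its gene, 5′ to 3′, with both parts of the element in capitals, so an element on the opposite strand reads CGTGG and then ATTGG.
Hspa5 (chr2:34772010-34772058, plus strand): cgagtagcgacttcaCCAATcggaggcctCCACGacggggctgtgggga
Hsp90b1, distal (chr10:86705623-86705671, minus strand): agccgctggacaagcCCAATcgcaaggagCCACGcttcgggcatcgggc
Hsp90b1, proximal (chr10:86705518-86705566, minus strand): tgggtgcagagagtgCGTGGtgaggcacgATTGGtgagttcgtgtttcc
Creld2 (chr15:88819505-88819553, plus strand): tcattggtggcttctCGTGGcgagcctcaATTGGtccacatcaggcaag
Dnajc3 (chr14:118937812-118937860, plus strand): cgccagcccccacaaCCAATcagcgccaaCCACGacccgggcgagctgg
Canx (chr11:50325785-50325833, minus strand): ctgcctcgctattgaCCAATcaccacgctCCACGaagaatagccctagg
Calr (chr8:84847060-84847108, minus strand): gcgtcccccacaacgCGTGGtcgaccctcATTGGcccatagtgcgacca
Pdia6 (chr12:17266476-17266524, plus strand): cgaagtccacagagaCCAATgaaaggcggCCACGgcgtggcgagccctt
Syvn1 (chr19:6046517-6046565, plus strand): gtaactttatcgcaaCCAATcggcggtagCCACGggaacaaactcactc
Herpud1, ERSE-II (chr8:94386362-94386402, plus strand): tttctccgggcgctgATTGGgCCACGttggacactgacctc
Dnajb11, ERSE-II (chr16:22857852-22857862, plus strand): ATTGGcCCACG

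The genes with an exact ERSE did not share a direction between the groups. All 8 were tested, 5 had a log2 fold change above 0 and 3 below 0, and their median was 0.15. It was 0.18 for the 14 tested genes whose windows held no exact ERSE, 8 of them above 0 and 6 below. Among the ERSE genes, values ran from 0.50 for Hspa5 to −0.39 for Calr, and the pair with ERSE-II stood at 0.32 for Dnajb11 and −0.69 for Herpud1. The 9 ERSE matches lay between 212 bases before the start for the distal Hsp90b1 element and 26 bases before it for the end of the Syvn1 element. The ERSE-II of Herpud1 lay 52 to 42 bases before the start. That of Dnajb11 lay 7 to 17 bases after the annotated start and is shown without flanking bases. Dnajb9, the gene with the largest log2 fold change, had no exact match to the 3 elements. Its 250 bases before the start are given beside those of Hspa5, with CCAAT and CCACG of either strand in capitals, because the latter gene is the usual reporter of the response and Dnajb9 is a known XBP1 target.
Hspa5 (chr2:34771840-34772089, plus strand): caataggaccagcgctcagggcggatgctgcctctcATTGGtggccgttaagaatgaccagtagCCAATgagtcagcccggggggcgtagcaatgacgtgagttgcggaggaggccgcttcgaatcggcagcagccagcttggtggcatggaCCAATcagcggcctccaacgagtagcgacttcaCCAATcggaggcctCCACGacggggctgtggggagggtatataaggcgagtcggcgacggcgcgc
Dnajb9 (chr12:44210069-44210318, minus strand): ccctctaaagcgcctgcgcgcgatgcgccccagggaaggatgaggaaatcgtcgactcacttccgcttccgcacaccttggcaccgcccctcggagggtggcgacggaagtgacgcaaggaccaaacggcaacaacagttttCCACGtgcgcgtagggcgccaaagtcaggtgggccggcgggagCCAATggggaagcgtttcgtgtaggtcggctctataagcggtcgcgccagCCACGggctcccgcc
The Hspa5 stretch holds 4 CCAAT and 1 CCACG, with 1 pair at the spacing of the element, while the Dnajb9 stretch holds 1 CCAAT and 2 CCACG at other spacings.

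**Figure D3:**
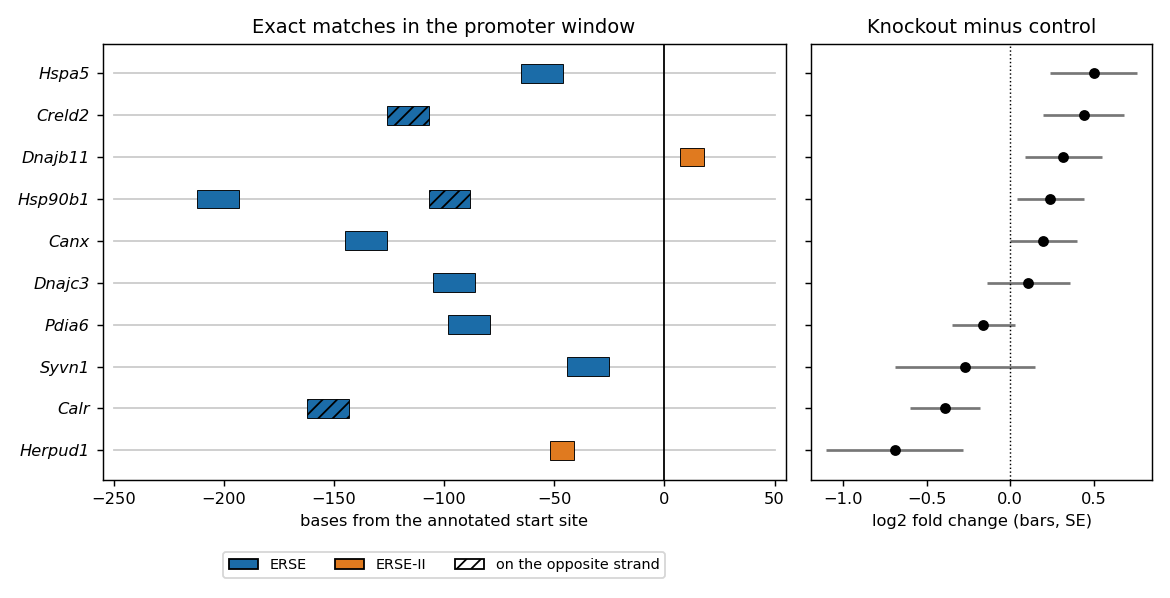
Left, exact ERSE and ERSE-II matches in the RefSeq windows of 10 genes, in bases from the annotated start, with hatched boxes for elements on the opposite strand. Right, log2 fold change of the same genes, knockout minus control, with limma standard errors as bars. Genes with an element lie on both sides of 0, from 0.50 for Hspa5 to −0.69 for Herpud1.

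None of the 9 luminal chaperones and co-chaperones passed the adjusted threshold. Of their log2 fold changes 7 of 9 were above 0, against 56.0% of all genes tested, with a median of 0.24. An unadjusted limma p under 0.05 with higher values was reached by 1, against 7.75%. In 5 of the 9 the groups did not overlap, with knockout higher, against 27.4% of all genes tested. Dnajb9, a J-domain co-chaperone of BiP that also restrains IRE1, measured 26.0 and 22.9 FPKM in the first and second control library, and 43.3 and 43.0 FPKM in knockout libraries 1 and 2. Both knockout libraries lay above both controls, and the groups were further apart than the spread within either. The means were 24.4 ± 2.17 and 43.2 ± 0.207 FPKM (SD, n = 2 each), a knockout mean 76.6% above the control mean. The log2 fold change was 0.80 ± 0.20 (SE), with a limma adjusted p of 0.228. It ran from 0.71 to 0.89 when any single library was left out, with limma adjusted p from 0.0938 to 0.547. Without knockout library 2, the knockout library with more Ywhaz, it was 0.80, and without knockout library 1 it was 0.79. For Dnajb9 the authors' deposited table lists an FDR of 0.1 beside a log2 fold change of 0.82. GENCODE M21 also places an opposite-strand gene on exons of Dnajb9, and whether the authors counted by strand is not stated in the sources. It likewise places other genes on exons of Derl2, Hsp90b1, Manf, Pdia3, Pdia4, Pdia6, Sec61a1 and Syvn1. For Hsp90b1, Manf and Pdia4 some of them are on the same strand.

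Hspa5, which encodes BiP, the central ER chaperone that holds the 3 sensors inactive, measured 51.8 and 33.1 FPKM in the control libraries and 71.3 and 48.6 FPKM in the knockout libraries. Knockout library 1 was highest and control library 2 lowest, while control library 1 lay above knockout library 2, so the groups overlapped. The means were 42.4 ± 13.2 and 60.0 ± 16.1 FPKM (SD, n = 2 each), and the log2 fold change of 0.50 ± 0.26 (SE) had a limma adjusted p of 0.521. It was 0.18 without control library 2, 0.23 without knockout library 1, 0.77 without knockout library 2 and 0.81 without control library 1, so the size rested on which pools were kept.

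Creld2, an ER-resident disulfide isomerase-like protein induced by the response, measured 18.7 and 14.2 FPKM in the control libraries and 25.8 and 19.5 FPKM in the knockout libraries. Dnajb11, a J-domain co-chaperone that delivers unfolded proteins to BiP, measured 11.4 and 10.3 FPKM in the control libraries and 15.4 and 12.3 FPKM in the knockout libraries. Hsp90b1, the ER member of the HSP90 family known as GRP94, measured 36.2 and 30.2 FPKM in the control libraries and 41.0 and 37.7 FPKM in the knockout libraries. In these 3 genes the groups did not overlap. Knockout library 1 was highest and control library 2 lowest, as for Hspa5, whose 2 other libraries lay in a different order. Sdf2l1, which keeps BiP clients from aggregating, measured 19.2 and 20.0 FPKM in the control libraries and 23.3 and 21.3 FPKM in the knockout libraries, again without overlap but with control library 1 lowest. The log2 fold changes of the 4 were 0.44 ± 0.24, 0.32 ± 0.23, 0.24 ± 0.20 and 0.18 ± 0.21 (SE), with limma adjusted p of 0.543, 0.665, 0.719 and 0.799. With 1 library left out, Creld2 ran from 0.25 to 0.63, Dnajb11 from 0.17 to 0.47, Hsp90b1 from 0.11 to 0.37 and Sdf2l1 from 0.12 to 0.24.

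The other 3 genes of the group overlapped between knockout and control. Dnajc3, a co-chaperone of BiP known as p58IPK, had a mean of 3.12 FPKM and a log2 fold change of 0.11 ± 0.25 (SE). Hyou1, the nucleotide exchange factor of BiP known as GRP170, had 2.72 FPKM and −0.07 ± 0.24. Manf had 298 and 194 FPKM in the control libraries and 259 and 207 FPKM in the knockout libraries, with −0.06 ± 0.23, so its control pools differed more from each other than the groups did. Over all 9 chaperone genes, knockout library 1 was the highest library in 6 and control library 2 the lowest in 8. Over all genes tested the same libraries were highest in 19.3% and lowest in 35.1%.

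The lectin chaperones lay on opposite sides of 0. Calr, which encodes calreticulin, a soluble lectin and calcium store, measured 84.3 and 61.8 FPKM in the control libraries and 52.7 and 56.8 FPKM in the knockout libraries, a log2 fold change of −0.39 ± 0.21 (SE; limma adjusted p = 0.525). Both knockout libraries lay below both controls, but the control pools were further apart than the gap between the groups. It was −0.17 without control library 1 and −0.61 without control library 2. Canx, which encodes calnexin, its membrane-bound relative, measured 58.4 and 47.9 FPKM in the control libraries and 60.6 and 61.4 FPKM in the knockout libraries, a log2 fold change of 0.20 ± 0.20 (SE; limma adjusted p = 0.751). The difference between the lectins was not tested.

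Disulfide isomerase genes were split, with 2 of 5 log2 fold changes above 0 and a median of −0.05. Pdia4, an isomerase also called ERp72, measured 12.5 and 9.51 FPKM in the control libraries and 18.1 and 13.8 FPKM in the knockout libraries. The groups did not overlap, and its log2 fold change of 0.50 ± 0.25 (SE) had a limma adjusted p of 0.496. It was 0.32 without knockout library 1 or control library 2 and 0.68 without either of the others. Pdia3, the isomerase that works with both lectins and is known as ERp57, measured 41.5 and 36.4 FPKM in the control libraries and 45.5 and 50.4 FPKM in the knockout libraries, also without overlap, with 0.29 ± 0.20 and a limma adjusted p of 0.631. The remaining 3 overlapped between the groups. P4hb, the founding isomerase PDI, had a mean of 47.3 FPKM and a log2 fold change of −0.05 ± 0.20, and Pdia6, an isomerase that also attenuates IRE1, 58.5 FPKM and −0.16 ± 0.19. Ero1a, the oxidase that recharges PDI, was lower in level, with 2.51 and 4.19 FPKM in the control libraries and 2.23 and 3.13 FPKM in the knockout libraries, and a log2 fold change of −0.22 ± 0.28.

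Transcripts of the sensors and of Xbp1 overlapped between the groups. Xbp1 measured 61.7 and 33.5 FPKM in the control libraries and 41.2 and 44.1 FPKM in the knockout libraries. The control libraries were the highest and the lowest of the 4, with both knockout libraries between them. The means were 47.6 ± 19.9 and 42.7 ± 2.03 FPKM (SD, n = 2 each), and the log2 fold change was −0.09 ± 0.27 (SE; limma adjusted p = 0.934). It was 0.34 without control library 1. The table has 1 value per gene, so spliced and unspliced Xbp1 are not separated. Atf6 measured 1.26 and 1.15 FPKM in the control libraries and 1.11 and 1.33 FPKM in the knockout libraries, with a log2 fold change of 0.01 ± 0.23 (limma adjusted p = 0.998). Ern1, below the minimum for testing, measured 0.745 and 0.581 FPKM in the control libraries and 0.962 and 0.471 FPKM in the knockout libraries, where the knockout libraries were the extremes. ATF6 and IRE1 are activated by cleavage and phosphorylation, so transcript levels do not measure their activity.

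Degradation genes went in different directions, with 3 of 6 tested log2 fold changes above 0. Selenos, a selenoprotein that anchors the p97 ATPase to the degradation complex, measured 51.7 and 48.5 FPKM in the control libraries and 88.0 and 73.1 FPKM in the knockout libraries. Both knockout libraries lay above both controls, by more than the spread within either group. The means were 50.1 ± 2.28 and 80.6 ± 10.5 FPKM (SD, n = 2 each), a knockout mean 60.7% above the control mean. The log2 fold change was 0.67 ± 0.19 (SE), with a limma adjusted p of 0.275, and it ran from 0.54 to 0.80 when any single library was left out, with limma adjusted p from 0.0622 to 0.719. The value of 0.80 was that without knockout library 2, and the value of 0.54 was that without knockout library 1. The authors' deposited table gives an FDR of 0.356 for Selenos. Selenos and Dnajb9 were the 2 genes with an unadjusted limma p under 0.05, at ranks 207 and 101 of all genes tested. Neither passed the adjusted threshold with another minimum, pseudocount or scaling, without the intensity trend, with same-numbered libraries as a block or with any single library left out. Both passed it when libraries of different number were paired, a fit added after seeing the data that leaves 1 residual degree of freedom. That fit called 475 of all 9544 genes tested, and its pairing was chosen from these data, so it is no support for either gene.

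Herpud1, a membrane protein that organises the degradation complex, measured 20.5 and 6.56 FPKM in the control libraries and 7.72 and 6.18 FPKM in the knockout libraries. Control library 1 stood far above the others, which lay close together. The log2 fold change of −0.69 ± 0.41 (SE; limma adjusted p = 0.583) became 0.065 without control library 1. Syvn1, the ubiquitin ligase HRD1, was likewise highest in control library 1, with 9.33 and 3.47 FPKM in the control libraries and 3.10 and 6.79 FPKM in the knockout libraries, and its log2 fold change of −0.27 ± 0.42 (SE) became 0.34 without that library and 0.20 without knockout library 1. Syvn1 shares exon positions with Mrpl49 on the opposite strand, which stood at 74.5 FPKM, so its values are uncertain where reads were counted without strand.

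The Derlins, thought to form the channel through which substrates leave the ER, lay on opposite sides of 0. Derl1 measured 54.4 and 48.9 FPKM in the control libraries and 43.0 and 40.8 FPKM in the knockout libraries, without overlap, a log2 fold change of −0.29 ± 0.19 (SE; limma adjusted p = 0.615). Derl2 measured 136 and 114 FPKM in the control libraries and 149 and 133 FPKM in the knockout libraries, with overlap and 0.18 ± 0.19. Their difference was not tested. Edem1, which trims glycans to mark proteins for disposal, had 1.94 and 1.42 FPKM in the control libraries and 1.87 and 2.60 FPKM in the knockout libraries, with 0.27 ± 0.25. Sel1l ranged from 0.807 to 1.29 FPKM and Os9 from 0.549 to 1.14 FPKM over the libraries, with overlap in each. Sel1l, Os9 and Ern1 had log2 fold changes of 0.12, 0.23 and 0.03 when no minimum was applied.

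None of the 3 translocation genes passed the adjusted threshold. Their log2 fold changes were all below 0, where 56.0% of all genes tested lay above it, and their median of −0.21 ran from −0.47 to −0.12 with 1 library left out. In Sec61a1 and Ssr1 knockout library 2 exceeded control library 2. Sec61a1, which encodes the pore-forming subunit of the channel, measured 51.8 and 34.4 FPKM in the control libraries and 27.4 and 36.3 FPKM in the knockout libraries, a log2 fold change of −0.41 ± 0.25 (SE; limma adjusted p = 0.592). Control library 1 was highest and the groups overlapped, and the value was −0.12 without that library. Sec61b measured 349 and 364 FPKM in the control libraries and 343 and 282 FPKM in the knockout libraries, without overlap, with −0.20 ± 0.18 (limma adjusted p = 0.732), which became −0.06 without knockout library 2. Ssr1, a subunit of the translocon-associated complex, measured 18.2 and 15.2 FPKM in the control libraries and 11.8 and 17.1 FPKM in the knockout libraries, with −0.21 ± 0.25, which became 0.04 without knockout library 1.

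Much of the variation lay between the pools of a group. The median ratio of the highest to the lowest library was 1.53 over the 27 genes tested. It was 1.58 over all genes tested that were above 0 in every library, so these genes were not more variable by that measure. Control library 1 exceeded control library 2 in 24 of the 27 genes tested, against 67.9% of all genes tested. Knockout library 1 exceeded knockout library 2 in 15 of 27, against 33.9%. Relative to each gene's mean over the 4 libraries, the median of the 27 was 0.04 in control library 1, −0.23 in control library 2, 0.04 in knockout library 1 and 0.03 in knockout library 2 on the log2 scale. The corresponding medians of all genes tested were 0.03, −0.10, −0.04 and 0.11. Together the 30 genes took 0.172% of the summed FPKM of control library 1 and 0.134% of that of control library 2, against 0.159% and 0.153% in the knockout libraries. With control library 1 left out, 20 of the 27 log2 fold changes were above 0 and their median was 0.25, against 0.12 for all genes tested. The count of genes on either side of 0 therefore depended on that pool. When each library was left out in turn, the log2 fold change moved by over 1.5 times or changed sign in 23 of the 27 genes. It stayed within 1.5 times of its value in 4, which were Dnajb9, Selenos, Pdia3 and Derl1. These moves were not counted over all genes tested.

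**Figure D4:**
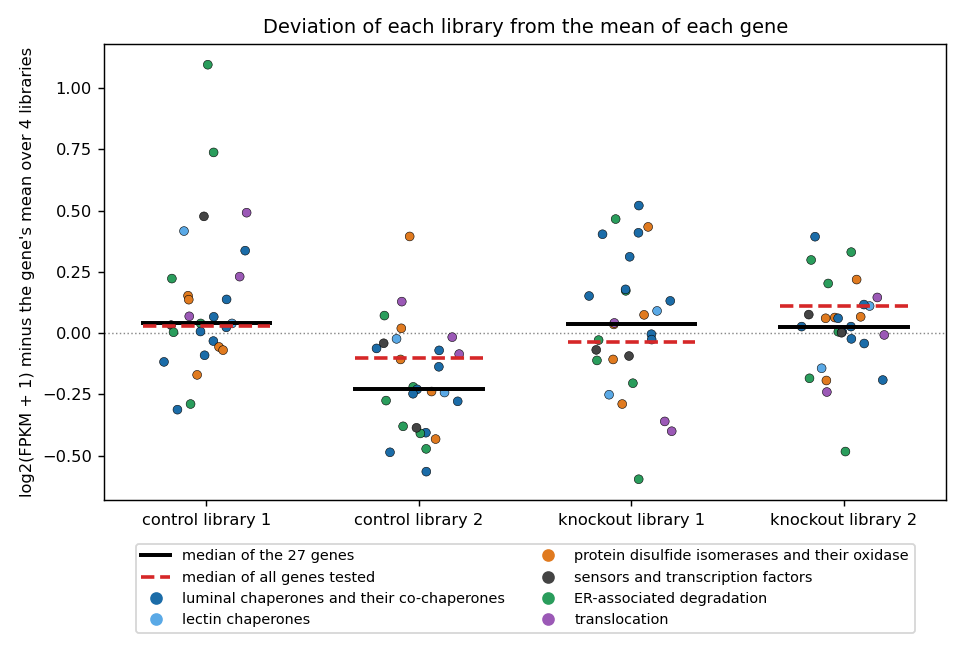
Deviation of each library from the gene's mean over the 4 libraries, on the log2(FPKM + 1) scale, for the 27 genes tested, coloured by role. Solid bars are the median of the 27 and dashed bars the median of all genes tested. Control library 2 lies lowest, at −0.23 against −0.10, and the degradation genes Herpud1 and Syvn1 lie highest in control library 1.

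Other genes of the ER, taken from 7 lists that hold 155 genes outside the 30, gave a similar picture. Of these 134 were tested, 69 with log2 fold changes above 0 and 65 below, at a median of 0.01, and 0 passed the limma threshold over all genes. Of the 134, 5 reached an unadjusted limma p under 0.05 with higher and 3 with lower values, against 7.75% and 3.33% of all genes tested. The groups did not overlap in 28 with higher and 17 with lower values, against 27.4% and 14.0%. None of these shares is above that of all genes tested.

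Within the PERK and ATF4 arm, the branch of the response absent from the 30 genes, 9 of 12 genes were tested, 4 above 0 and 5 below, at a median of −0.17. Atf4, its transcription factor, measured 50.3 and 42.4 FPKM in the control libraries and 29.4 and 30.1 FPKM in the knockout libraries. Both knockout values were under both control values, and the log2 fold change was −0.62 ± 0.20 (SE; limma adjusted p = 0.305). Asns, an ATF4 target that makes asparagine, had −0.51 ± 0.25, and Cebpb, a transcription factor of stress and differentiation, 0.85 ± 0.34 (limma adjusted p = 0.502 and 0.396). Eif2ak3 itself measured 1.85 and 1.82 FPKM in the control libraries and 1.09 and 1.56 FPKM in the knockout libraries. As for the other sensors, transcript levels do not measure the activity of PERK or ATF4. Ddit3, which encodes the stress factor CHOP, had a log2 fold change of −0.27 ± 0.26, and its groups overlapped. The remaining tested genes of this arm were Sesn2 at 0.25 ± 0.25, Ppp1r15b at 0.19 ± 0.24, Ppp1r15a at 0.09 ± 0.25 and Nupr1 at −0.17 ± 0.25.

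The other lists held genes on both sides of 0. Among other translocation and signal recognition genes 11 of 21 tested were above 0, with a median of 0.04. Srp54a, the GTPase of the signal recognition particle, measured 13.5 and 15.5 FPKM in the control libraries and 29.7 and 28.4 FPKM in the knockout libraries, for which the log2 fold change was 0.95 ± 0.21 (SE; limma adjusted p = 0.208). Ssr2, a partner of Ssr1, measured 615 and 613 FPKM in the control libraries and 470 and 462 FPKM in the knockout libraries, with −0.40 ± 0.16 (limma adjusted p = 0.411), and Srp72 had 0.38 ± 0.22. In the group of 9 tested sensors and ER-membrane transcription factors, 6 were above 0, at a median of 0.04. Rtcb, the RNA ligase that joins the Xbp1 exons after IRE1 has cut them, measured 12.5 and 13.3 FPKM in the control libraries and 23.0 and 18.3 FPKM in the knockout libraries, with 0.63 ± 0.23 (limma adjusted p = 0.353). Traf2, an adaptor of IRE1, had 0.38 ± 0.27 and Wfs1, an ER membrane protein of calcium balance, −0.30 ± 0.26.

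Other degradation genes had 18 of 25 tested values above 0, against 56.0% of all genes tested, and a median of 0.05. Their leading genes were Ubxn4, which recruits p97, at 0.64 ± 0.27 (SE), Erlin2 at 0.52 ± 0.25 and Aup1 at −0.48 ± 0.27, with limma adjusted p of 0.423, 0.475 and 0.550. N-glycosylation and glycan trimming genes had 6 of 19 above 0 and a median of −0.09. Ddost, a subunit of the oligosaccharyltransferase, measured 273 and 179 FPKM in the control libraries and 109 and 176 FPKM in the knockout libraries (−0.67 ± 0.27 SE, limma adjusted p = 0.395), while Alg2 had 0.50 ± 0.29 and Prkcsh 0.37 ± 0.25. Other foldases had 15 of 31 above 0 and a median of −0.01, led by Fkbp11 at −0.49 ± 0.26, Cnpy4 at 0.44 ± 0.25 and Txndc12 at −0.50 ± 0.28. ER exit and retrieval genes had 9 of 20 above 0 and a median of −0.03, led by the cargo receptor Tmed2 at 0.54 ± 0.19 (limma adjusted p = 0.347), Kdelr3 at −0.37 ± 0.28 and Sar1a at 0.24 ± 0.19. The authors' deposited table attaches the KEGG pathway of protein processing in the ER to 143 genes outside the 30. Of these 119 were tested, 75 above 0 and 44 below, at a median of 0.04, and 0 passed, with 8 higher and 3 lower at an unadjusted limma p under 0.05. Over all genes tested 56.0% were above 0, the median was 0.05, and 7.75% were higher and 3.33% lower at that p.

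**Figure D5:**
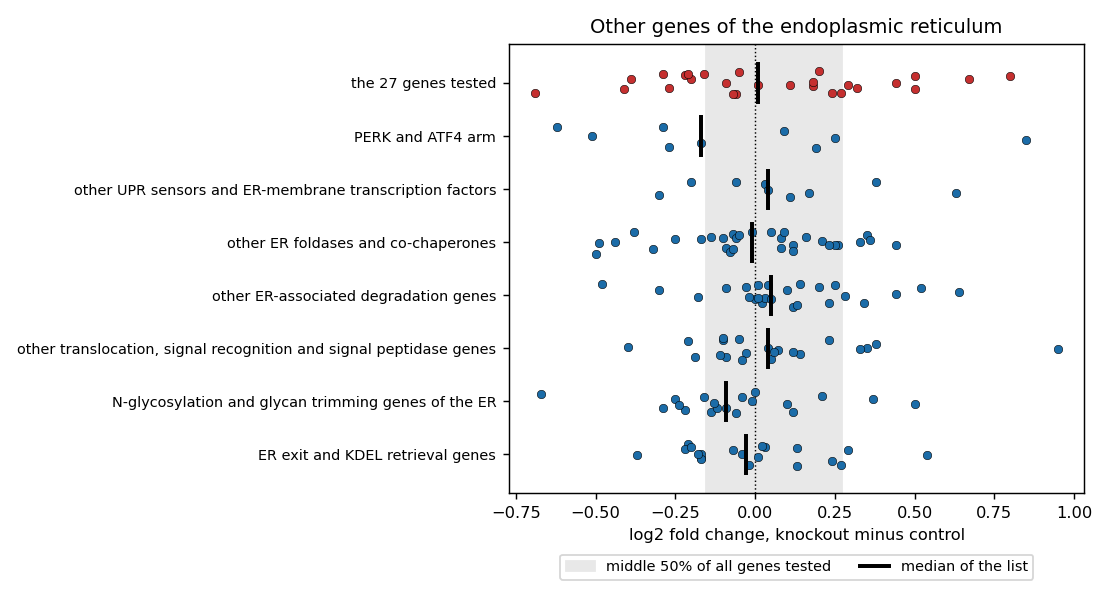
Log2 fold change, knockout minus control, of the 27 genes tested and of the tested genes of 7 other ER lists, 1 point per gene, with the list's median as a black bar. The grey band is the middle 50% of all genes tested. List medians lie between −0.17 for the PERK and ATF4 arm and 0.05 for other degradation genes, and each list has genes on both sides of 0.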

How the data were processed

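Poly(A) RNA of 4 blastocyst pools was measured, 2 per group. The authors deposited 1 table with FPKM per library, to 3 decimals, and with group means, also FPKM. The deposited log2 fold changes, p-values and FDR are the authors' own, from a test that the sources do not state. Per the submitters' processing notes, the build was GRCm39 and the tools included RSEM, DESeq2, StringTie 1.3.1, HISAT2 2.1.0, Bowtie2 2.2.8 and fastp 0.18.0, with no roles stated. The table holds no counts, so log2(FPKM + 1) of genes averaging 1 FPKM or more was fitted on the group with limma 3.58.1 in R 4.3.3, with an intensity trend and 2 residual degrees of freedom. P-values were adjusted over all 9544 genes tested. The added 1 FPKM understates changes of low genes. The code was tested on simulated data.

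Depth was estimated from single-transcript genes over 1500 nt in GENCODE M21, with an assumed fragment of 200 nt, and 79.9% to 86.6% of low values fell within 0.1 fragment of an integer. Counting error given from it covers counting alone.

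The 30 genes and the other lists were chosen with earlier results of these data known, so counts over them are descriptions. All 30 genes are named. Values per library were required for Hspa5, Xbp1, Atf6 and Ern1, for genes with an unadjusted p under 0.05 and for genes without overlap between groups. Up to 3 genes with the smallest p came from each other ER list. Values given for further genes, among them Eif2ak3 and Ddit3, and Dab2, were chosen after they were seen. All 201 list symbols were matched, 2 of them by gene ID. Positions and promoter windows are those of RefSeq on GRCm38.p6, and a planned look at protein ends was not made here. Replicate numbers are given in the labels, but nothing there says that they mark a shared origin. Alternatives changed the minimum, the pseudocount, the scaling, the trend, a replicate block and the libraries included.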

Additional observations from a re-analysis of the deposited data

How the results depend on the processing

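Leaving out 1 library at a time, a minimum of 5 FPKM or none, a pseudocount of 0.1, TPM scaling, median-of-ratios scaling, a fit without the intensity trend and a replicate block each gave 0 calls among the 30 genes. The count over all genes tested, 7, became 0 with no minimum, 13 with TPM scaling, 4 with median-of-ratios scaling, 3 without the trend and 38 with the replicate block, and 15 to 205 with 1 library left out, where the lone library of a group is assumed to vary like the other group. Deviations of same-numbered libraries correlated at −0.244 over tested genes, so a crossed pairing was added after seeing the data. With its 1 residual degree of freedom it called 475 of all 9544 genes tested, 2 of them among the 30, Dnajb9 and Selenos. It put 8 of the 30 at an unadjusted limma p under 0.05, a number not counted over all genes tested. Because the pairing was chosen from these data, its calls are not an independent test. Genes of the 30 at an unadjusted p under 0.05 numbered 4 with median-of-ratios scaling and 3 to 6 with 1 library left out. With 1 library left out, 14 to 20 of the genes lay above 0 and 7 to 13 below, and their median ran from 0.033 to 0.249. Atf6 changed sign with median-of-ratios scaling (−0.043). Signs also changed when a library was left out for Atf6 (−0.065 to 0.080), Ero1a (−0.507 to 0.058), Herpud1 (−1.439 to 0.065), Hyou1 (−0.172 to 0.036), Manf (−0.366 to 0.249), P4hb (−0.175 to 0.084), Ssr1 (−0.467 to 0.039), Syvn1 (−0.871 to 0.339) and Xbp1 (−0.522 to 0.340). The cause was not tested. Ern1, Os9 and Sel1l lay under the 1 FPKM minimum and were fitted only without it.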
